A study of Mus musculus with 16 samples.

Results

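Chromatin accessibility was examined at the loci of 10 ETS transcription factor genes: Elf1, Elf3, Elf5, Ehf, Spdef, Ets1, Ets2, Erg, Fli1 and Elk3. It was measured by ATAC-seq, which uses a transposase to tag and sequence open DNA, in pancreatic cancer cells sorted from tumors in the pancreas, liver and lungs of mice. A peak (a region of open chromatin from 1 list merged over samples, which need not be open in each) was a member when, of all protein-coding start sites, the one nearest to its midpoint belonged to one of these genes and lay within 100 kb. By this rule, 171 of the 136630 nuclear peaks were members. Ets1 had 31 of them, Elk3 had 29, Ehf and Ets2 had 27 each, Elf5 had 12, Elf1 had 11, Elf3, Spdef and Erg had 10 each, and Fli1 had 4. No measured value entered the rule, but the genes were chosen with earlier results of these data known.

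All groups held tumor cells of the KC-shSmad4 model. These cells carried Ptf1a-Cre, a Cre driven in the pancreatic lineage, together with rtTA3, the mKate2 reporter and a doxycycline-inducible hairpin against Smad4, for which the model used 2 independent shRNAs. Hosts were female athymic Foxn1nu mice aged 6 to 8 weeks, which lack T cells. They received 100000 cells in the pancreas, 400000 in the spleen (which was then removed) for the liver, or 250000 in the tail vein for the lungs. In the OFF groups doxycycline kept Smad4 silenced, and in the ON groups the drug had been withdrawn for 14 days, starting 4 weeks (pancreas), 5 weeks (liver) or 6 weeks (lungs) after injection. The column names of the deposited table place the lung samples, ON and OFF, 1 day later than those of the other organs. From each tumor 60000 mKate2+ cells were taken. There were 3 mice each in Panc_OFF, Panc_ON, Lung_OFF and Lung_ON, and 2 each in Liv_OFF and Liv_ON, so that organ cannot be told apart from injection route, cell dose and time of growth. Between 22.5 M and 37.5 M reads per sample fell in nuclear peaks. Start sites of all 8 ductal and epithelial marker genes were covered by a peak, whereas none of 5 lung alveolar markers had such a peak. Of 6 hepatocyte markers, Alb, Apoa1, Serpina1a and Fgb had none, while Ttr and Apob each had one, more open in Liv_OFF than in Lung_OFF.

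ETS factors share a DNA-binding domain that reads a GGAA or GGAT core, and members differ in the flanking bases, in partners and in the tissues that express them. Elf3, Elf5, Ehf and Spdef belong to the epithelium-associated branch, which is known for roles in the differentiation of secretory and glandular epithelia. Ets1 and Ets2 are nuclear effectors downstream of Ras and MAP kinase signaling. Erg and Fli1 are best known in endothelial and blood-forming cells, and Elk3 is a ternary complex factor that can act as a repressor. Accessibility of a gene's surroundings is not its expression, and a peak nearest to a start site need not act on that gene.

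For each gene the called region of smallest p in each direction between liver and lungs is described below. Only regions whose Liv_OFF and Lung_OFF values did not overlap were eligible, so that separation was set by the choice. Of these the 3 of smallest p in each direction are shown here as windows of 300 bases at the peak's center (GRCm38, the same assembly as mm10, plus strand, read from the RefSeq genome). The first 3 were more open in liver tumors and the last 3 less open. Capitals mark matches to the searched motifs TGANTCA (AP-1), CAGGAAG and CCGGAAG (ETS-type letters), TGTGGTT (RUNX) and GGGCGTG (KLF), on either strand. Of the 6 windows, the Elk3 one alone held any of these letters, TGANTCA.
Elf3, chr1:135260970-135261269, upstream of the gene: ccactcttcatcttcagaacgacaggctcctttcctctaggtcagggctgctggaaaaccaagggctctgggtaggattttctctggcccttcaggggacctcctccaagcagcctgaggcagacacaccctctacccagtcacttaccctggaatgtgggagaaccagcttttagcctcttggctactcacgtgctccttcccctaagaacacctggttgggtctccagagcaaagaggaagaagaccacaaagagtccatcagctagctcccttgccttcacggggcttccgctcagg
Elf1, chr14:79527706-79528005, intron: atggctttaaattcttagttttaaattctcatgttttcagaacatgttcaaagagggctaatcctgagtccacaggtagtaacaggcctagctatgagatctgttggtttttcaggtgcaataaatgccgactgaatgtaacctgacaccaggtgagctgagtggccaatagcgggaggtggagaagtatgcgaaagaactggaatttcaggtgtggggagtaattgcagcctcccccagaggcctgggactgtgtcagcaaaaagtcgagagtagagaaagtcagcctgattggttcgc
Ets2, chr16:95659076-95659375, upstream of the gene: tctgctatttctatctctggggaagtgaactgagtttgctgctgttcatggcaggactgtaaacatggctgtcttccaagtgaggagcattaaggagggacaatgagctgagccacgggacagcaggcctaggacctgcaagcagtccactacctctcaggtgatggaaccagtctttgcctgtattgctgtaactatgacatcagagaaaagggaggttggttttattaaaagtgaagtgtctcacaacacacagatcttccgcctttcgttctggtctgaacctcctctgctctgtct
Fli1, chr9:32594957-32595256, upstream of the gene: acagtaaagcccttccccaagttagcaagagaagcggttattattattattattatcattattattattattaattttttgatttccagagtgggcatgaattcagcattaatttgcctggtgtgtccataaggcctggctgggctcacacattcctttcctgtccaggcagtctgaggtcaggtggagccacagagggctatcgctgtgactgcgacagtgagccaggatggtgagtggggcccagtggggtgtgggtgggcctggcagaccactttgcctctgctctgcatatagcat
Elk3, chr10:93288053-93288352, intron: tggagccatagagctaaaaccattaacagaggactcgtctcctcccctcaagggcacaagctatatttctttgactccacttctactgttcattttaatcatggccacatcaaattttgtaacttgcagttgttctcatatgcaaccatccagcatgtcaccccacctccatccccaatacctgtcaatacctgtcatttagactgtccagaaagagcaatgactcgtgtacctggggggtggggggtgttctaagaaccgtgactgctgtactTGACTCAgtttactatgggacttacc
Ets1, chr9:32710066-32710365, intron: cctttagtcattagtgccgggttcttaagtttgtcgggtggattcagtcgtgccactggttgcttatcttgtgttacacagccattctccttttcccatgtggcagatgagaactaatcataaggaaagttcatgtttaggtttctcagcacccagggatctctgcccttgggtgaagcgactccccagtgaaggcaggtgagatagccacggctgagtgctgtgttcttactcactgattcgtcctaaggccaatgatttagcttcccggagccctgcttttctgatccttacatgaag

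Between liver and lung tumor cells with Smad4 off, the 10 loci fell into genes mainly more open in the liver, genes mainly less open there, and mixed genes. All 10 Elf3 peaks, 13 of 27 Ets2 peaks (with 4 lower) and 3 of 11 Elf1 peaks were called higher in Liv_OFF. In the other direction, 21 of 31 Ets1 peaks (with 1 higher), 6 of 10 Erg peaks and 2 of 4 Fli1 peaks were called lower. Ehf (7 higher and 6 lower), Spdef (4 and 3), Elf5 (1 and 4) and Elk3 (5 and 13 of 29) were taken as mixed. Elf5 and Elk3 had more peaks lower, but the summed counts of these 4 genes, described below, were not called. Peaks were called where the log2 fold change reached 0.58 in either direction with a limma adjusted p no higher than 0.1. Of the 171 members, 103 were called, 44 higher and 59 lower. Of all nuclear peaks 49.7% were called, 22.9% higher and 26.8% lower, against 60.2%, 25.7% and 34.5% of the members, and the direction varied between the genes. The median log2 difference was −0.23 over the members and 0.00 over all peaks.

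**Figure D1:**
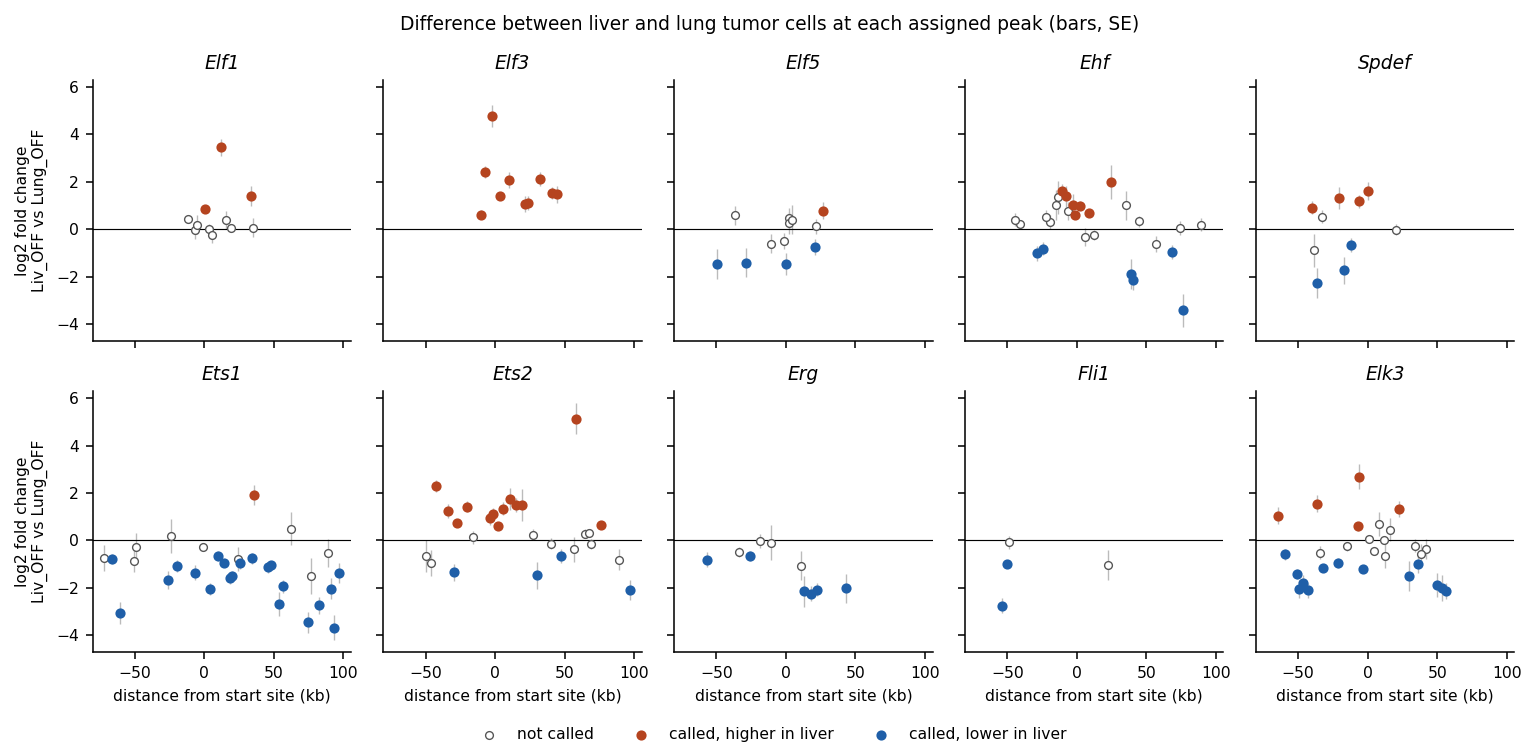
Log2 fold change between Liv_OFF (n = 2) and Lung_OFF (n = 3) of each of the 171 member peaks against the distance of its midpoint from the nearest start site in kb (negative is upstream); bars are SE and filled points were called. Every Elf3 point lies above 0, 21 of 31 Ets1 points are called below 0, and Ets2 has 13 points called above 0 and 4 called below.

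Elf3, which encodes an epithelium-specific activator, had all its peaks called in 1 direction. A peak 2551 bp upstream of its start site (mm10 chr1:135260761-135261478, intergenic) had normalized counts of 164 and 301 in the 2 Liv_OFF mice, 7.36, 7.61 and 6.89 in Lung_OFF and 7.69, 12.5 and 9.26 in Panc_OFF. Both liver mice stood above every other Smad4-off mouse, where the peak was close to absent. The log2 fold change against Lung_OFF was 4.75 ± 0.47 (SE, limma adjusted p = 1.21e-05). The gene itself (chr1:135253575-135258568, minus strand) lay wholly under 1 peak of 9523 bp that covered its start site. That peak measured 8304 and 8488 in Liv_OFF against 2516, 4206 and 2989 in Lung_OFF and 3056, 3022 and 2738 in Panc_OFF, and the liver values did not overlap the others. Its log2 fold change against Lung_OFF was 1.41 ± 0.15, limma adjusted p = 1.91e-05.

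Ehf, a relative of Elf3 expressed in many glandular epithelia, differed by region. Of its 27 peaks, 2 covered start sites. The one with its midpoint 1241 bp upstream of a start site (chr2:103282204-103287799, intron) had counts of 1754 and 1645 in Liv_OFF and 1036, 1154 and 1195 in Lung_OFF. The groups did not overlap, and the log2 fold change was 0.59 ± 0.17, limma adjusted p = 0.00961. This value sat at the fold threshold, and the call was lost with TMM factors (0.52), with quantile normalization (0.21), without Liv_OFF replicate 1 (0.55) and without Lung_OFF replicate 1 (0.53). The second, 2019 bp downstream of a start site (chr2:103297534-103304761, intron), measured 2356 and 2144 in Liv_OFF and 1079.7, 1292 and 1024 in Lung_OFF (1.00 ± 0.18, limma adjusted p = 4.96e-04). A peak 40360 bp downstream (chr2:103243072-103243728, intergenic) went the other way. It had counts of 23.4 and 34.8 in Liv_OFF against 186, 83.7 and 139 in Lung_OFF (−2.14 ± 0.41, limma adjusted p = 7.07e-04).

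Accessibility of epithelial markers moved in the same direction as Elf3. Of the 8 listed, 7 had a start-site peak called higher in Liv_OFF than in Lung_OFF, all but Sox9, and the summed counts of all 8 ranged from 55914 to 57223 in Liv_OFF, from 25090 to 37498 in Lung_OFF and from 24928 to 27446 in Panc_OFF. Whether this had a part in the Elf3 and Ehf differences was not tested. In bulk samples like these, fewer cells of a type and less accessibility per cell cannot be told apart.

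Elf5, known for its role in the alveolar cells of the mammary gland, had narrow peaks, with a median width of 400 bp. Its promoter peak (chr2:103411294-103411920) measured 13.6 and 16.7 in Liv_OFF and 52.5, 26.1 and 60.3 in Lung_OFF. It was lower in both liver mice than in every lung mouse (log2 fold change −1.47 ± 0.45, limma adjusted p = 0.0142). A peak 26326 bp downstream of a start site, at an exon, was the 1 Elf5 region called higher in the liver, with 32.1 and 43.2 against 20.3, 19.6 and 24.1 (0.78 ± 0.35, limma adjusted p = 0.0711). That call was lost in the fit of only these groups (adjusted p = 0.180) and without Liv_OFF replicate 2 (0.328), Lung_OFF replicate 1 (0.128) or Lung_OFF replicate 2 (0.122).

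Spdef, a factor of goblet and other secretory cells, had peaks of both kinds. Its promoter peak (chr17:27728304-27729211) measured 185 and 97.5 in Liv_OFF and 41.4, 51.1 and 38.8 in Lung_OFF (log2 fold change 1.61 ± 0.38, limma adjusted p = 0.00321). A peak 5889 bp upstream was higher too, at 889.8 and 561 against 199.7, 438 and 347 (1.18 ± 0.27, limma adjusted p = 0.00257). Further upstream, at 36263 bp, a peak annotated as intronic had 27.2 and 30.7 in Liv_OFF against 307, 53.3 and 173 in Lung_OFF (−2.26 ± 0.63, limma adjusted p = 0.00817). The lung values of that peak spread widely, and it was chosen among peaks whose lung and liver values did not overlap.

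Elf1, a broadly expressed ETS factor, was more open in the liver at few sites. Its promoter peak (chr14:79514812-79517704) had 1404 and 1346 in Liv_OFF and 689, 849.8 and 762 in Lung_OFF (log2 fold change 0.85 ± 0.14, limma adjusted p = 2.38e-04). With quantile normalization the difference was 0.52, below the fold threshold. The Elf1 region of smallest p lay 12169 bp downstream of a start site (chr14:79527314-79528396, intron). It measured 309 and 639 in Liv_OFF, 29.5, 53.3 and 40.5 in Lung_OFF and 26.5, 38.4 and 38 in Panc_OFF, and thus stood apart in both liver mice (3.44 ± 0.37, limma adjusted p = 2.06e-05).

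Ets2 was more open in the liver on both sides of its start site. The start-site peak (chr16:95701685-95705881) had 2941 and 2789 in Liv_OFF and 1785, 2243 and 1719.7 in Lung_OFF, with a log2 fold change of 0.59 ± 0.11, limma adjusted p = 6.14e-04. The groups did not overlap, but the size sat at the threshold. The call was lost with TMM factors (0.52), quantile normalization (0.17), the GC correction (0.32) and a replicate block shared by organs (0.56), and without Liv_OFF replicate 1 (0.55), Lung_OFF replicate 1 (0.54) or Lung_OFF replicate 3 (0.52). A peak 42850 bp upstream (chr16:95658502-95659948, intergenic) was more distinct. It measured 416 and 773 in Liv_OFF, 111, 137 and 103 in Lung_OFF and 70.03, 80.4 and 70.4 in Panc_OFF (2.27 ± 0.26, limma adjusted p = 2.41e-05 against Lung_OFF).

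The widest liver and lung difference among the members in the limma fit, singled out after its value was seen, was at an Ets2 peak 58131 bp downstream (chr16:95759886-95760526), with 112 and 334 in Liv_OFF and 6.44, 5.43 and 2.58 in Lung_OFF. Toward the far end of the interval the direction turned. The peak 96735 bp downstream had 18.5 and 23.7 in Liv_OFF and 131, 48.9 and 126 in Lung_OFF (−2.10 ± 0.43, limma adjusted p = 0.00119).

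Ets1 showed the reverse of Ets2 at most of its peaks. The region of smallest p was an intronic peak of the gene 13831 bp downstream of a start site (chr9:32708230-32712200). It had 880.0 and 1198 in Liv_OFF, 2083, 1922 and 2052 in Lung_OFF and 1740.5, 1792 and 1821 in Panc_OFF, so that both liver mice lay below every Smad4-off mouse of the other organs. The log2 fold change against Lung_OFF was −0.97 ± 0.12, limma adjusted p = 4.22e-05. The promoter peak (chr9:32692561-32698165) differed less, with 1894 and 2221 against 2414, 2573 and 2529 (−0.29 ± 0.096, limma adjusted p = 0.0217), and was not called. With quantile normalization it passed the fold threshold (−0.68). A single intronic peak 35640 bp downstream was called higher in the liver, at 157 and 351 against 101, 55.4 and 43.1 (1.90 ± 0.42, limma adjusted p = 0.00193). Over the 31 peaks the median log2 difference was −1.07.

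No peak covered a start site of Erg or Fli1. The nearest assigned peaks lay 10959 bp and 22657 bp away by their midpoints. The Erg one measured 16 and 8.36 in Liv_OFF, 16.6, 3.26 and 31.9 in Lung_OFF and 89.7, 99.2 and 155 in Panc_OFF, so that liver and lung overlapped and the pancreas stood above both (−0.096 ± 0.74, limma adjusted p = 0.925 for liver against lung). Its sign turned with quantile normalization (0.25), with the GC correction (0.0034) and when single libraries were left out. The Fli1 one was low in both groups, at 6.17 and 2.79 in Liv_OFF and 7.36, 13 and 9.48 in Lung_OFF (−1.04 ± 0.63, limma adjusted p = 0.180), and was called with the GC correction (−1.40).

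Further from the start sites both genes had regions that were less open in the liver. An intronic Erg peak 22423 bp downstream (chr16:95436572-95437072) had 22.2 and 22.3 in Liv_OFF, 106, 70.6 and 122 in Lung_OFF and 93.9, 99.2 and 83.3 in Panc_OFF. The log2 fold change against Lung_OFF was −2.08 ± 0.26, limma adjusted p = 4.34e-05. At Fli1, a peak 53511 bp upstream (chr9:32594423-32595789, intergenic) had 18.5 and 33.4 in Liv_OFF against 209.9, 121 and 209 in Lung_OFF (−2.76 ± 0.31, limma adjusted p = 2.47e-05). Both liver mice were below all other Smad4-off mice at both regions.

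Endothelial and immune markers, from cells in which Erg and Fli1 are best known, mostly lacked start-site peaks. Of 8 endothelial markers, Pecam1, Tek, Tie1, Emcn and Cldn5 had no peak at a start site, and the other 3 summed to 332 to 425 in Liv_OFF, 431 to 1001 in Lung_OFF and 476 to 515 in Panc_OFF. Of these 3, Cdh5 was called lower in the liver (mean counts 33.5 in Liv_OFF and 293 in Lung_OFF). Its means were 59.7 in Lung_ON and 44.9 in Panc_OFF. The wide spread of the Lung_OFF sums leaves room for a mean raised by a single mouse. Among the immune markers, Ptprc, Cd3e, Itgam and Lyz2 had none, and the 3 with a peak summed to 585 to 932 in Liv_OFF, 415 to 593 in Lung_OFF and 348 to 444 in Panc_OFF. All 7 fibroblast markers had one, summing to 1145 to 1254, 1465 to 1800 and 2398 to 3223 in the same order, and the 2 hepatocyte markers with a peak, Ttr and Apob, summed to 1009 to 1172, 383 to 543 and 320 to 406. Against Lung_OFF, Cd68 alone of the immune peaks was called, higher in Liv_OFF (log2 fold change 0.79, limma adjusted p = 0.0169). Pdgfrb alone of the fibroblast peaks was called, lower in Liv_OFF (−1.25, limma adjusted p = 0.0213). Both hepatocyte peaks were called higher, Ttr (1.42, limma adjusted p = 0.00392) and Apob (1.24, limma adjusted p = 0.00168). The part of such cells in the ETS differences was not tested.

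At Elk3 the start-site peak did not differ detectably between liver and lungs in the main fit, and several surrounding peaks were less open in the liver. The start-site peak (chr10:93307895-93311866) had 1253 and 1255 in Liv_OFF and 1190.2, 1220.4 and 1253 in Lung_OFF (log2 fold change 0.039 ± 0.10, limma adjusted p = 0.773). Its sign turned with TMM factors (−0.030), quantile normalization (−0.30, limma adjusted p = 0.0024) and the GC correction (−0.27, limma adjusted p = 0.013). The last 2 were under the fold threshold, but whether a difference was detected depended on the normalization. An intronic peak (chr10:93287561-93288843) measured 272 and 308 in Liv_OFF and 689, 572 and 728 in Lung_OFF (−1.19 ± 0.14, limma adjusted p = 3.32e-05). A small peak 5888 bp upstream was higher in the liver, at 44.4 and 127 against 18.4, 8.69 and 7.75 (2.69 ± 0.53, limma adjusted p = 8.97e-04). The called Elk3 peaks, 5 higher and 13 lower, thus described opposite differences within 1 locus.

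**Figure D2:**
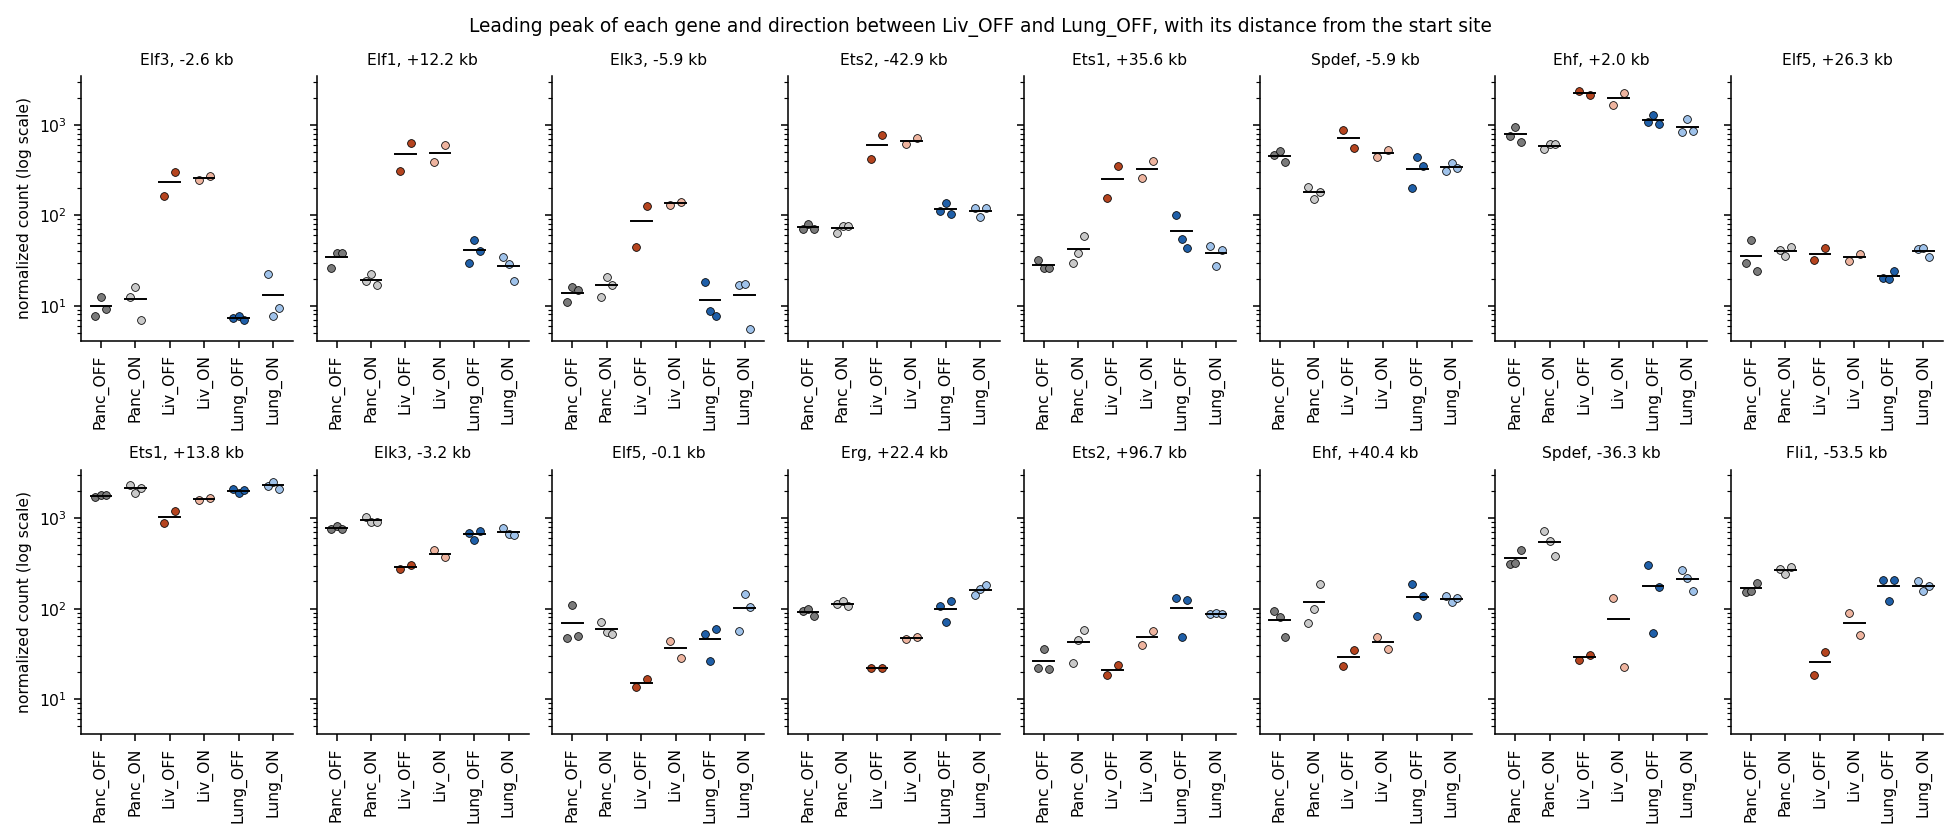
Normalized count (log scale) in every sample of the leading peak for each gene and direction between Liv_OFF and Lung_OFF. It is the called peak of smallest p among those whose groups did not overlap. Points are mice, lines are group means, and titles give the distance from the start site. At the Elf3 peak 2.6 kb upstream the liver mice lie between 164 and 301 and no other mouse exceeds 22.5.

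The members included neighbors that share a stretch of chromosome. Ets2 and Erg start 115 kb apart on chromosome 16, Ehf and Elf5 108 kb apart on chromosome 2, and Ets1 and Fli1 154 kb apart on chromosome 9, each pair with no other protein-coding start site between. Ets2 and Erg differed in direction, with 13 and 0 peaks called higher in the liver, whereas Ets1 and Fli1 both had more peaks called lower.

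To give 1 value per gene, the normalized counts of its peaks were summed. Elf3 totaled 14337 and 14604 in Liv_OFF, 3892, 6637 and 4728 in Lung_OFF and 4713, 5092 and 4337 in Panc_OFF. Its log2 fold change between Liv_OFF and Lung_OFF was 1.54 ± 0.17 (limma adjusted p = 3.87e-05 over 17794 genes). Ets2 (0.78 ± 0.14, limma adjusted p = 4.50e-04) and Elf1 (0.67 ± 0.11, limma adjusted p = 2.92e-04) were also called higher. Ets1 (−0.83 ± 0.096), Erg (−1.01 ± 0.22) and Fli1 (−1.16 ± 0.15) were called lower (limma adjusted p = 4.24e-05, 0.00201 and 6.61e-05). The remaining 4 were not called, at 0.43 for Ehf, 0.49 for Spdef, −0.22 for Elf5 and −0.42 for Elk3. In this comparison 32.2% of all locus totals were called, and the median over all genes was 0.30, so that relative to that median Elf1 and Ets2 were higher by less and Ets1, Erg and Fli1 lower by more. With quantile normalization Elf1 (0.49) and Ets2 (0.49) dropped under the fold threshold, and with peaks within 50 kb only, Fli1 lost its call (−0.20). Spdef was called without Liv_OFF replicate 2 (0.70) or Lung_OFF replicate 1 (0.60).

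**Figure D3:**
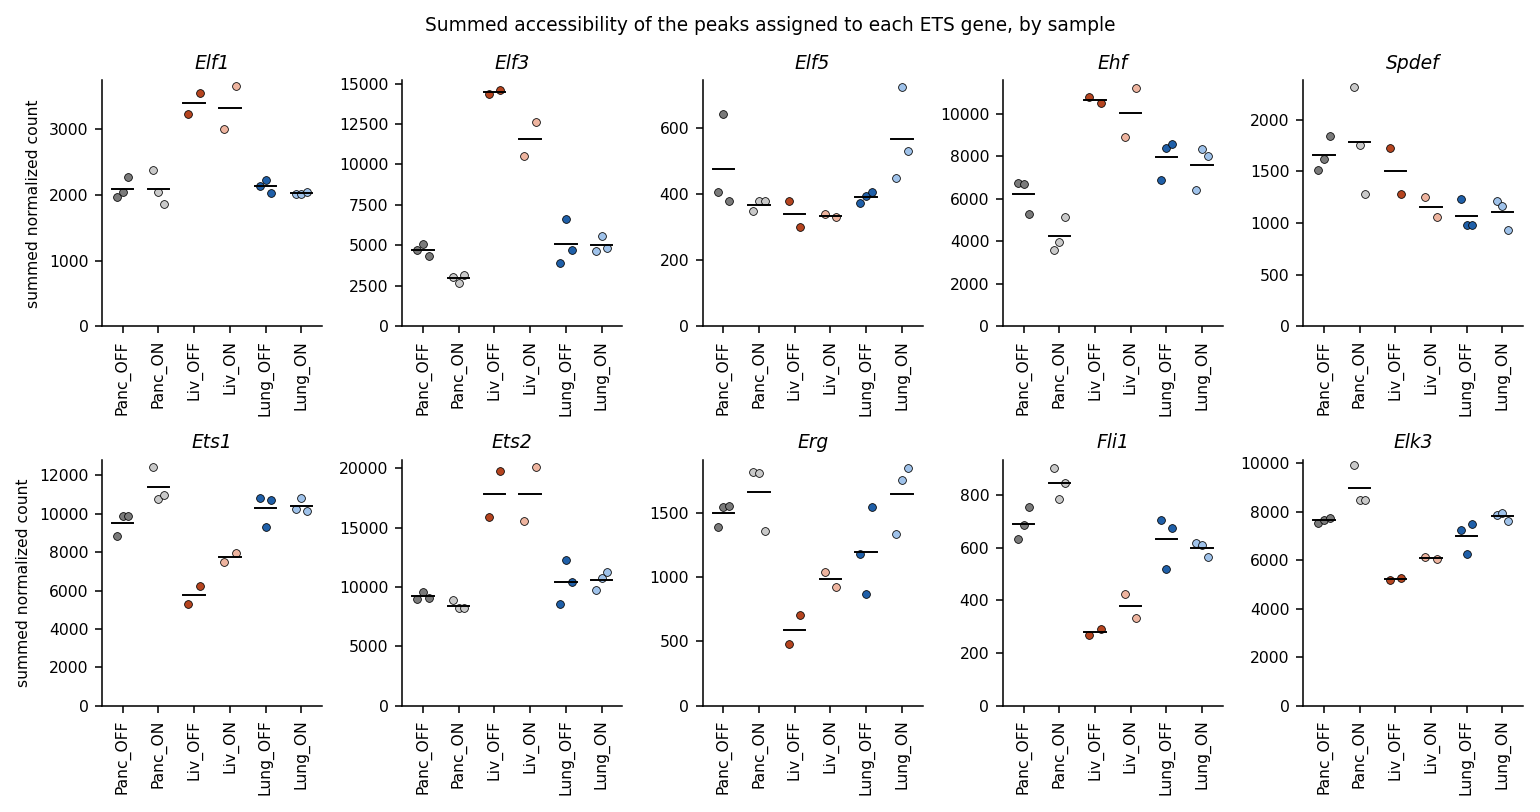
Summed normalized count of the peaks assigned to each gene; points are mice (n = 3, 3, 2, 2, 3 and 3 in Panc_OFF, Panc_ON, Liv_OFF, Liv_ON, Lung_OFF and Lung_ON), lines are group means and axes start at 0. The 4 liver mice lie above all others for Elf3, Ehf, Elf1 and Ets2 and below all others for Ets1, Fli1 and Elk3.

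Chromosome surroundings were measured as the median deviation of the other peaks within 5 Mb of each gene. Between Liv_OFF and Lung_OFF this median differed by −0.62 (log2) around both Ehf and Elf5, −0.41 around Elf1 and −0.34 around Elk3, and by 0.09 to 0.28 around the other 6 genes, against −0.03 over all peaks. The totals were 0.67 for Elf1, −0.83 for Ets1, −1.01 for Erg, −1.16 for Fli1 and 0.43 for Ehf. Totals and surroundings are unlike measures, with a median of 0.30 for the totals over all genes. Their signs can therefore not be set against each other directly. The part of these regional shifts in the values of the members was not tested.

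Liver and pancreatic tumors were compared next, with 106 of the 171 members called (44 higher and 62 lower in Liv_OFF than in Panc_OFF), where 58.5% of all peaks were called (26.2% higher and 32.3% lower). Elf3 had 9 peaks higher and 0 lower, Ets2 14 and 3, Ehf 10 and 3 and Elf1 2 and 0. Ets1 had 1 higher and 21 lower, Elk3 4 and 15, Erg 0 and 8, Fli1 0 and 3, Elf5 0 and 5 and Spdef 4 and 4. This comparison shares the Liv_OFF mice with the one above. The regions of smallest p were the Ets2 peak 42850 bp upstream (log2 fold change 2.93 ± 0.26, limma adjusted p = 3.95e-06) and the intronic Elk3 peak (−1.43 ± 0.14, limma adjusted p = 6.32e-06), which had 756, 818 and 765 in Panc_OFF. Of the locus totals, Ehf (0.78), Elf1 (0.70), Elf3 (1.62) and Ets2 (0.94) were called higher and Ets1 (−0.73), Erg (−1.36) and Fli1 (−1.30) lower, with 36.8% of all totals called. With quantile normalization the Ehf (0.51) and Elf1 (0.48) totals fell under the fold threshold.

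Lung and pancreatic tumors had fewer members called, 24 in all, 11 higher and 13 lower in Lung_OFF, where 17.3% of all peaks were called (6.59% higher and 10.7% lower). Elf3 and Elf1 had 0 among them by limma. The peak of smallest p among the higher ones was the distal Ets2 region 96735 bp downstream, with 131, 48.9 and 126 in Lung_OFF and 22.2, 35.7 and 21.3 in Panc_OFF (1.82 ± 0.39, limma adjusted p = 0.00652). Among the lower ones it was an intronic Ets1 peak 48957 bp from a start site (chr9:32646604-32647527), with 23, 10.9 and 20.7 in Lung_OFF and 93.9, 98.3 and 211 in Panc_OFF (−2.78 ± 0.54, limma adjusted p = 0.00391). Both peaks were chosen among those whose groups did not overlap. Of the locus totals, Spdef alone was called (−0.64 ± 0.19, limma adjusted p = 0.0654, with 5.74% of all totals called). It lost the call without Panc_OFF replicate 2 (adjusted p = 0.158) or 3 (0.243) or Lung_OFF replicate 2 (0.167) or 3 (0.149). Without Panc_OFF replicate 3 the count of called members fell to 11.

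The same organs were compared with Smad4 restored. Between Liv_ON and Lung_ON 72 members were called (32 higher and 40 lower, with 35.8% of all peaks called, 17.6% higher and 18.2% lower). Elf3 had 7 peaks higher and 0 lower, Ets2 12 and 1, and Ets1 1 and 12. Without Liv_ON replicate 2 the count was 36. Between Liv_ON and Panc_ON 105 were called (52 and 53, with 59.4% of all, 27.1% higher and 32.2% lower), among them 10 of 10 Elf3 peaks and 17 of 27 Ehf peaks higher. Between Lung_ON and Panc_ON 59 were called (35 and 24, with 27.8% of all, 12.8% higher and 14.9% lower), with 16 Ehf and 6 Elf3 peaks higher and 0 lower. That count was 34 without Panc_ON replicate 1 and 37 without Lung_ON replicate 2, and its split was 49 and 21 with quantile normalization.

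Of the 10 locus totals with Smad4 restored, 6 were called between Liv_ON and Lung_ON, 7 between Liv_ON and Panc_ON and 4 between Lung_ON and Panc_ON, where 20.8%, 35.9% and 14.0% of all totals were called. Against Lung_ON, the liver was higher at Elf3 (log2 fold change 1.20), Ets2 (0.75) and Elf1 (0.71) and lower at Elf5 (−0.73), Erg (−0.73) and Fli1 (−0.66). Without Liv_ON replicate 2 only the Elf3 call was left of these, with Ets2 at 0.56 and Elf1 at 0.57 under the fold threshold and adjusted p = 0.140, 0.186 and 0.104 for Elf5, Erg and Fli1. Elf5 also lost its call without Lung_ON replicate 2 (−0.54), and the Fli1 sign turned with peaks within 50 kb (0.029).

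Against Panc_ON, the liver was higher at Elf3 (1.96), Ehf (1.25), Ets2 (1.07) and Elf1 (0.67) and lower at Fli1 (−1.16), Erg (−0.74) and Spdef (−0.59). The Elf1 call was lost with quantile normalization (0.53), those of Elf1 (0.53), Erg (adjusted p = 0.104) and Spdef (adjusted p = 0.208) without Liv_ON replicate 2, and that of Spdef also without Panc_ON replicate 1 (−0.38) or 2 (−0.58). The lungs were higher than Panc_ON at Ehf (0.85), Elf3 (0.76) and Elf5 (0.59) and lower at Spdef (−0.66). Elf5 lost its call with a mean count of at least 20 (0.57) and without Panc_ON replicate 1 (0.55) or Lung_ON replicate 2 (0.40), and Spdef without Panc_ON replicate 1 (−0.45) or Lung_ON replicate 3 (−0.54).

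To ask what Smad4 restoration changed within an organ, ON and OFF mice were compared. In the pancreas 10 members were called and all of them fell: 5 Ehf, 3 Elf3, 1 Spdef and 1 Ets2 peaks. Of all peaks 3.42% were called, 0.364% higher and 3.06% lower, against 5.85% of the members. The Ets1, Erg, Fli1, Elk3, Elf1 and Elf5 loci gave 0 calls by limma. An unadjusted limma p under 0.05 was found for 42 of the 171 members and for 23103 of all 136630 peaks. The summed start-site counts of the 8 epithelial markers ranged from 24928 to 27446 in Panc_OFF and from 18326 to 21987 in Panc_ON, and their part in the result was not tested.

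The pancreatic change of smallest p was at an Elf3 peak 40560 bp downstream (chr1:135217353-135218404, intergenic). It fell from 283, 280.5 and 247 in Panc_OFF to 118, 80.5 and 89.7 in Panc_ON (log2 fold change −1.50 ± 0.22, limma adjusted p = 0.0103), with no overlap. The Spdef peak 5889 bp upstream fell from 461, 509 and 394 to 208, 151 and 182 (−1.33 ± 0.24, limma adjusted p = 0.0173). The start-site peak of Elf3 fell from 3056, 3022 and 2738 to 1909, 1575 and 1860.2 (−0.73 ± 0.13, limma adjusted p = 0.0179). The groups were separate at each of these peaks, as they were, in either direction, at 49 of all 171 members. The share over all peaks was not counted. The summed Elf3 locus also fell (−0.67 ± 0.15, limma adjusted p = 0.0511, with 2.13% of all totals called).

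The pancreatic counts varied with single libraries. Leaving out Panc_OFF replicate 2 cut the 10 calls to 1, and ended those of the Spdef and start-site Elf3 peaks (adjusted p = 0.103 and 0.102). There were 4 calls without Panc_OFF replicate 1, 4 without Panc_ON replicate 1 and 6 without Panc_OFF replicate 3. Without Lung_OFF replicate 1 or 2, which enter through the shared estimate of spread, there were 17 and 16. The Elf3 total lost its call with the GC correction (−0.55), and without Panc_OFF replicate 1 (adjusted p = 0.139), 2 (0.215) or 3 (0.103) or Panc_ON replicate 2 (0.183).

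In the liver 2 members were called and both rose (0.55% of all peaks called, 0.462% higher and 0.0886% lower). The intronic Ets1 peak 13831 bp downstream rose from 880.0 and 1198 in Liv_OFF to 1582 and 1691 in Liv_ON (0.67 ± 0.13, limma adjusted p = 0.0602). An Elk3 peak 32365 bp upstream (chr10:93342747-93344254, intergenic) rose from 285 and 399.9 to 574 and 648 (0.85 ± 0.19, limma adjusted p = 0.0888). Both mice of Liv_ON lay above both of Liv_OFF at each. With 2 mice a group, separation in either direction was found at 77 of all 171 members, so it adds little to these calls. The share over all peaks was not counted. Both calls were lost with edgeR (adjusted p = 0.109 and 0.139), in the fit of the liver mice alone (0.197 and 0.194), and without Liv_OFF replicate 1 or Liv_ON replicate 1. The Elk3 call was also lost with a pseudocount of 10 (adjusted p = 0.109), quantile normalization (0.110), the GC correction (0.102) and without Liv_ON replicate 2 (0.147). In all, leaving out 1 library ended it for 11 of 16 libraries, against 2 of 16 for the Ets1 peak. Without Liv_ON replicate 2 there were 6 calls, without Lung_OFF replicate 1 or 2 there were 5, and without any 1 of Panc_OFF replicates 1, 2 and 3, Panc_ON replicate 1 and Lung_ON replicates 1, 2 and 3 there was 1.

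In the lungs no member was called by limma, edgeR or DESeq2, which called 0.00366%, 0.00366% and 0.73% of all peaks. An unadjusted limma p under 0.05 was found for 14 of the 171 members and for 9720 of all 136630 peaks.

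Averaged over the 3 organs, 16 members were called, 9 of them higher and 7 lower with Smad4 restored (6.62% of all peaks called, 3.61% higher and 3.0% lower). The 7 that fell belonged to Ehf (3), Elf3 (2) and Spdef (2), and the 9 that rose to Ets2 (3), Ets1 (2), Erg (2), Fli1 (1) and Elf5 (1). With quantile normalization the split was 5 and 8. An intronic Erg peak 18266 bp downstream (chr16:95440270-95441688) went from 173, 184 and 159 to 277, 289.7 and 202 in the pancreas, from 38.3 and 50.2 to 146 and 89.4 in the liver and from 179, 155 and 342 to 305, 454 and 508 in the lungs. The ON and OFF mice overlapped in the lungs and not in the other organs. Each ON lung mouse was higher than the OFF mouse of the same number, a pairing that the labels do not give. Its averaged log2 change was 0.96 ± 0.18, limma adjusted p = 0.0101.

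A second Erg peak, 22423 bp downstream, rose by 0.70 ± 0.14 (limma adjusted p = 0.0147), and an intronic Ets1 peak 56296 bp downstream by 0.75 ± 0.15 (limma adjusted p = 0.0142). In the falling direction, an Ehf peak 74168 bp downstream changed by −0.86 ± 0.17 (limma adjusted p = 0.0131). The Elf3 peaks 40560 bp and 23965 bp downstream changed by −0.67 ± 0.14 and −0.69 ± 0.16 (limma adjusted p = 0.0153 and 0.0264). At the peak 40560 bp downstream the fall was largest in the pancreas (−1.50). The liver and lung changes lay above the pancreatic one by 1.11 ± 0.35 and 1.38 ± 0.32 (log2), neither difference called in the main fit. The peak 23965 bp downstream had 249 and 219 in Liv_OFF and 123 and 141 in Liv_ON. The count of called members was 28 without Lung_OFF replicate 1, 8 without Liv_OFF replicate 1 and 9 without Liv_ON replicate 1.

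**Figure D4:**
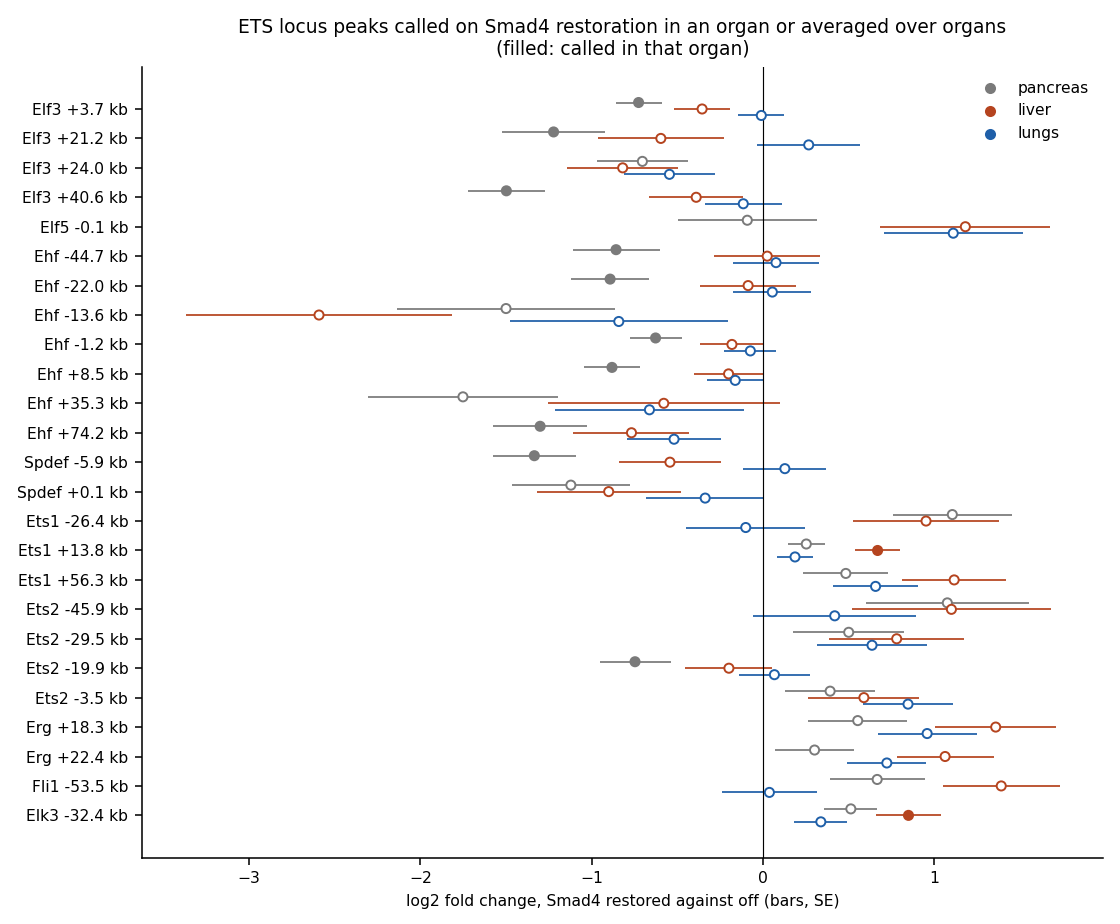
Log2 fold change on Smad4 restoration in the pancreas, liver and lungs (bars, SE) of the 25 member peaks called in an organ or averaged over organs, with the distance from the start site; filled points were called in that organ. Called pancreatic points all lie below 0 and called liver points above 0, and no lung point is filled.

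Whether restoration acted differently between organs was tested by interaction terms. Limma and edgeR called 0 members and 0 of all peaks. DESeq2 called 4 members, all between lungs and pancreas, where it called 1.65% of all peaks. By limma, 11 members had an unadjusted p under 0.05 between liver and lungs, 11 between liver and pancreas and 23 between lungs and pancreas. Of all 136630 peaks, 7171, 5403 and 14973 did so, in the same order. Same-numbered lung libraries deviated together (correlations of 0.491, 0.124 and 0.214), though each came from its own mouse and no label pairs them. The replicate number was therefore also taken as a block in the lungs. This block was chosen from the same data, so its p-values may be too small. With that block, 7 members were called between the effect in the lungs and that in the pancreas, all with the higher change in the lungs (1.27% of all peaks called in that direction): 3 at Elf3, 2 at Ehf and 1 each at Spdef and Ets2. With a replicate block in every organ 1 was left, the Elf3 peak 40560 bp downstream (limma adjusted p = 0.0917). At the Elf3 peak 40560 bp downstream, the change in the lungs exceeded that in the pancreas by 1.38 ± 0.24 (log2, limma adjusted p = 0.0305 with the block and 0.237 without). Its lung counts were 193, 334 and 296 in Lung_OFF and 189, 305 and 262 in Lung_ON. The Spdef peak 5889 bp upstream gave 1.46 ± 0.29 (limma adjusted p = 0.0462 with the block and 0.244 without). These comparisons share the pancreas mice with the pancreatic result. Without Lung_OFF replicate 2, 8 members were called in the fit without the block.

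By sequence and position the member peaks were wider than most, with a median of 718 bp against 589 bp over all nuclear peaks, and higher, with a median mean count of 124 against 57.5. They had a median GC content of 47.2% against 45.8%, and 53.2% were intergenic and 42.7% intronic, with 2.34% in promoters against 9.76% of all peaks. In the central windows of 300 bases, TGANTCA, which reads the same on both strands, was found in 39.2% of members and 34.1% of all peaks. It was found in 27.3% of the 44 members higher in Liv_OFF than in Lung_OFF and in 55.9% of the 59 lower, beside 20.0% and 53.4% of all peaks called in those directions. CAGGAAG was found in 9.94% of members and 14.2% of all peaks, CCGGAAG in 1.75% and 2.42%, TGTGGTT in 4.68% and 10.9%, and GGGCGTG in 1.75% and 2.98%. By direction, TGTGGTT was found in 9.09% of the higher and 1.69% of the lower members (4 of 44 and 1 of 59), beside 7.77% and 14.3% of all peaks called in those directions. CAGGAAG and CCGGAAG cannot occupy the same bases on a strand. Of the leading peaks of each gene, 6 of 8 that were lower in the liver and 2 of 8 that were higher held TGANTCA. A match is a description of the letters only.

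Of 16 other ETS family genes, 14 had assigned peaks, 117 in all. Between Liv_OFF and Lung_OFF 54 of these were called, 33 higher and 21 lower. Of all nuclear peaks 49.7% were called there, 22.9% higher and 26.8% lower. Etv3 (9 of 12 peaks), Etv5 (4 of 13) and Elf2 (3 of 11) had 3 or more called peaks that were all higher in the liver. Etv3 had 11 peaks higher and 0 lower against Panc_OFF as well, where 26.2% of all peaks were called higher. Against Panc_OFF, Lung_OFF had 7 of 13 Etv5 and 4 of 7 Etv1 peaks lower and 0 higher. There 10.7% of all peaks were called lower. Etv6 had 3 of 27 peaks lower, and 0 higher, on restoration averaged over organs, where 3.0% of all peaks were called lower.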

How the data were processed

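ATAC-seq was measured in 16 samples of 6 groups, each from its own mouse. Per the study's methods, the authors used cutadapt for trimming, Bowtie2 for alignment (mm10), MACS2 for peaks, which were merged across samples where close, and featureCounts for read counts. How duplicates and the Tn5 offset were treated is not given in the sources used here. The deposited signal values are read counts divided by DESeq2 size factors, and 100% of values could be turned back into whole reads (tolerance 0.1), on which edgeR and DESeq2 were run as alternatives. Reads in nuclear peaks numbered 22.5 M to 37.5 M per sample, and the mitochondrial row (1.43% to 3.56% of reads) was left out. Its share was highest in Liv_OFF (3.06% and 3.56%, against 1.52%, 2.17% and 1.43% in Lung_OFF). Median reads per peak were lowest there (40 and 36, against 64, 45 and 60). The part of this in the liver calls was not tested. The size-factor scaling rests on a majority of peaks being alike in all samples, so a general shift in accessibility would not be seen.

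Peaks were assigned to the nearest protein-coding start site (GENCODE vM21 basic) within 100 kb, which gave 107868 peaks to 17794 genes. Values were tested as log2(normalized count + 1) with limma (trend and robust) over 6 group means and all 136630 nuclear peaks, with Benjamini-Hochberg adjustment, so fold changes of low peaks are understated. Calls used the study's thresholds, 0.58 and an adjusted p of 0.1. Named peaks were each gene's start-site peak (or the nearest assigned one), its called peak of smallest p in each direction between Liv_OFF and Lung_OFF, and the called member of smallest p in each direction in the other OFF comparisons, all but the first only where the groups did not overlap. For restoration they were all called members if 5 or fewer, otherwise the 3 of smallest p in each direction. Of the other ETS genes, those with 3 or more called peaks in 1 direction only were named. The members and lists were chosen with earlier results of these data known. The scripts were tested on simulated data. An allele of the model and a marker gene are not reported here.

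Same-numbered samples shared deviations from their group means with a correlation of 0.491, 0.124 and 0.214 in the lungs, of −0.33, 0.027 and −0.33 in the pancreas and of 0.083 in the liver. The pairing in the lungs comes from these correlations and not from the labels. Alternatives were other normalizations, pseudocounts, filters, distances, replicate blocks, tools and leaving out each library. Tools were R 4.3.3, limma 3.58.1, edgeR 4.0.16, DESeq2 1.42.0 and Python 3.11.15.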

Additional observations from a re-analysis of the deposited data

How the results depend on the processing

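Of 1941 alternative values for 76 single differences, 1857 kept their direction and their side of the threshold, 10 changed sign and 74 crossed the threshold. Of 369 alternative values for 14 counts, 326 were within 1.5 times the reported count and 43 were not. The number of members called for restoration in the pancreas (10) was 18 with quantile normalization and 16 with DESeq2. In the liver (2) it was 1 with a pseudocount of 10, quantile normalization or the GC correction, 0 in the fit of only these groups and with edgeR, and 8 with DESeq2. The average over organs (16) gave 9 with a pseudocount of 10, and the interaction (0) gave 4 with DESeq2. The cause was not tested. Leaving out 1 library at a time moved the counts from 11 to 28 between Lung_OFF and Panc_OFF, from 36 to 76 between Liv_ON and Lung_ON, from 34 to 70 between Lung_ON and Panc_ON, from 1 to 17 for restoration in the pancreas, from 0 to 6 in the liver, from 8 to 28 averaged and from 0 to 8 for the interaction. The called locus totals between Lung_OFF and Panc_OFF went from 0 to 1.

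The replicate block gave 1 call for the interaction in every organ, 7 in the lungs only, and 7 in the lungs only with the GC correction. Shared by organs, the replicate block ended the calls of the Ets2 start-site peak and of the Elf5 peak 26326 bp downstream (adjusted p = 0.106), and the replicate blocks changed no other call of a named peak or total and moved no other count by over 1.5 times. Sign changes were those of the Erg peak 10959 bp upstream (0.25 with quantile normalization, 0.0034 with the GC correction, 0.032 with the replicate block, −0.93 to 0.55 leaving out libraries), the Elk3 start-site peak (−0.030 with TMM, −0.30 with quantile normalization, −0.27 with the GC correction) and the Fli1 total between Liv_ON and Lung_ON (0.029 within 50 kb). A block in the lungs only gave no value for comparisons between organs, the pancreas or the liver, and a fit of only the groups compared gave none for the average. With 2 liver mice a group, precision was limited most there.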

Other observations

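The pattern of each summed locus over the 6 groups was compared with that of every gene that had at least 5 peaks and started elsewhere (7739 to 7771 genes), as the root mean square difference of the centered log2 group means. This is a description over 6 group means that share libraries and depth, and it says nothing of shared function or control. The genes nearest to Elf3 were Ehhadh (0.066), Dennd2d (0.074) and Degs2 (0.078). Those nearest to Ehf were Wfdc2 (0.046), Slc13a1 (0.062) and Cd24a (0.063), among them Cd24a, which encodes a surface protein of many epithelial cells. Nearest to Elf5 were Cx3cr1 (0.079), Fgf18 (0.082) and Eefsec (0.089), to Spdef Akip1 (0.049), Afap1 (0.055) and Timm8a2 (0.072) and to Elf1 Tbcd (0.037), Pqlc1 (0.041) and Lancl1 (0.042). Ets2 was nearest to Tbc1d2 (0.029), Il1a (0.031) and Lmtk2 (0.035), of which Il1a encodes an inflammatory cytokine, and Ets1 to Pstpip1 (0.038), Map6 (0.041) and Zfp365 (0.045). For Erg they were Fbln2 (0.074), Spata4 (0.091) and Ccdc172 (0.097), with Fbln2 an extracellular matrix gene, for Fli1 Sparcl1 (0.049), Slc24a5 (0.069) and Hacd4 (0.071) and for Elk3 Prdm8 (0.023), Vangl2 (0.034) and Ahctf1 (0.040).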
